A study of Mus musculus with 32 samples.

Results

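The low dose of disulfiram (DSF) on the standard diet (SD) was examined in the livers of 10 male C57BL/6J mice, 5 given SD with DSF (SDL) and 5 given SD alone (SD), out of 30 mice in 6 groups. The members were taken by their labels and column names, with no use of measured values. SDL mice received 100 mg/kg of DSF per day from food holding 1 g/kg, and SD mice received the same food without the drug, of which fat gave 17% of the calories. The labels give an age of 56 weeks and their protocol text 58 weeks, and 40 or 41 weeks on the diets. The age at the start of the diets is given as 16 weeks, and as 14 weeks in the design text. Male mice of 1 inbred strain were studied, without fasting, and RNA came from whole liver, in which fewer cells of a type and less RNA per cell cannot be told apart. SD with 200 mg/kg per day (SDH, food at 2 g/kg) was also used here. So were the high-fat diet (HFD, fat at 61% of calories) alone and HFD with 100 mg/kg per day (HFDL, food at 2.33 g/kg). HFD with 200 mg/kg per day (HFDH, food at 2.67 g/kg) entered the shared fit and was not compared. SDL and HFDL thus shared a nominal daily dose and differed in the drug content of the food.

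DSF blocks aldehyde dehydrogenases, the enzymes that clear acetaldehyde after alcohol, and is used as an alcohol-aversive drug. In the body it is cut to diethyldithiocarbamate, which binds copper and zinc. The liver answers many foreign compounds through the nuclear receptors CAR and PXR, which raise cytochromes P450, and answers electrophiles through the transcription factor NRF2, which raises glutathione transferases and related enzymes. It also takes up, stores and exports fat, and the genes of lipid droplets and lipoproteins follow diet and fat load.

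RNA was measured on 11 Illumina BeadChip arrays, with SD mouse 1 measured on 2 arrays that were averaged (Pearson's r 0.997 across probes). On these arrays 46.3% to 49.3% of the probes were detected, and the share did not separate the groups, at 48.2% ± 1.12 in SD and 47.4% ± 1.02 in SDL (mean ± SD, n = 5 each, two-sided exact permutation p = 0.27). Of 13 hepatocyte markers on the array, 11 were detected in all 10 mice, while the probe of Tat was detected in none. SD mouse 2 carried transcripts of pancreatic acinar cells, with a summed intensity over 26 such markers of 18162 against a median of 2554 in SD and a range of 1728 to 2670 in SDL. None of the 10 acinar genes that could be tested passed the test between the groups, and their part in other results was not tested. SD mouse 5 stood apart from the other 9 mice along the first principal component.

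**Figure D1:**
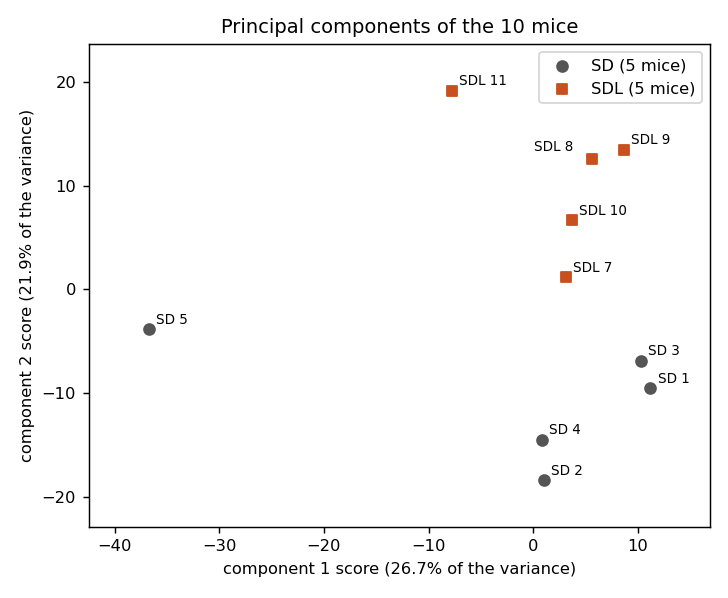
Scores of the 10 mice (SD circles, SDL squares) on the first and second principal components of 9225 detected genes, in units of normalized log2 level. All 5 SDL mice have higher component 2 scores than all 5 SD mice, and SD mouse 5 lies alone at the low end of component 1.

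The first component held 26.7% of the variance and set SD mouse 5, at -36.7, against the other 9 mice, which lay between -7.76 and 11.2. The second component held 21.9% and separated the groups. SDL mice scored 1.18, 12.6, 13.4, 6.67 and 19.1 (mice 7 to 11) and SD mice -9.50, -18.4, -6.86, -14.5 and -3.84 (mice 1 to 5). The difference in mean score was 21.2, with a two-sided exact permutation p of 0.0079, the smallest that 5 against 5 mice can give, and 0.024 after adjustment over 3 components. Components 1 and 3 did not separate the groups (adjusted exact permutation p = 0.84 for both). Without SD mouse 5 the first component took over the separation (difference 23.0, adjusted exact permutation p = 0.024).

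Of 9970 genes tested with limma, 27 (0.271%) were higher and 36 (0.361%) lower in SDL than in SD at an adjusted p under 0.05 (Benjamini-Hochberg over all genes). Without adjustment, 456 genes (4.57%) were higher and 615 (6.17%) lower at p under 0.05. All adjusted p of single genes below are from this model, whose spread came from the 27 mice of all 6 groups whose arrays detected at least 35% of the probes. Fitted to the 10 mice alone, the same test called 20 of 9225 genes (0.217%), of which 18 were among the 63. Fitted to all 30 mice, including 3 arrays of low signal in other groups, it called 2 of 10029 (0.0199%), Ntrk2 and an unnamed probe, both lower. Another scaling moved the balance of the directions, to 22 higher and 52 lower with median centring and 29 higher and 22 lower with neqc. Values per mouse are given below as deposited intensities, with SD mouse 1 as the geometric mean of its 2 arrays. Differences are on the normalized log2 scale, SDL minus SD, with the standard error.

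**Figure D2:**
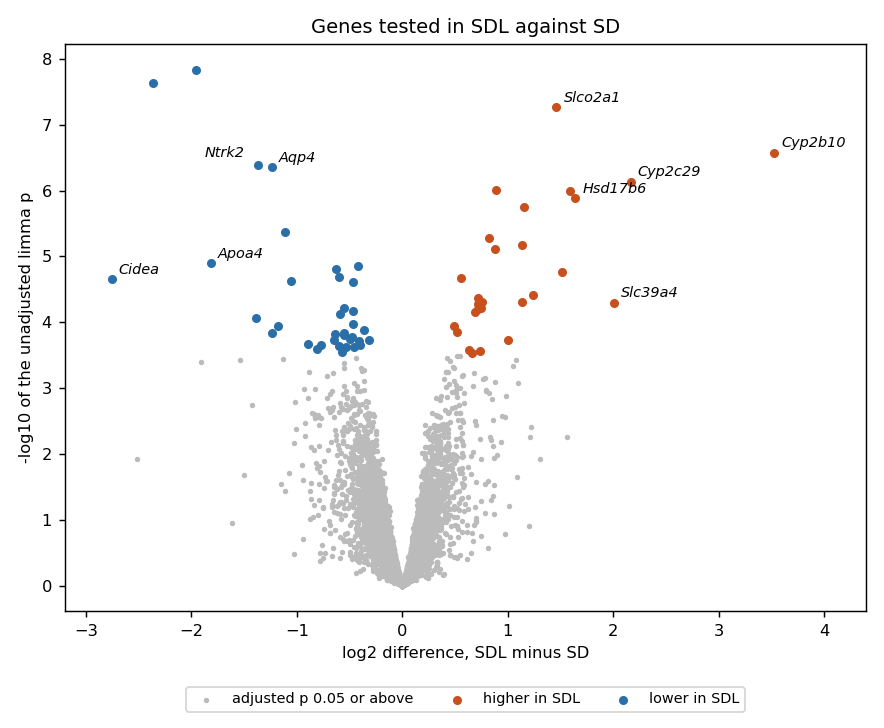
Each point is 1 of 9970 genes, by its log2 difference (SDL minus SD, horizontal) and the negative log10 of its unadjusted limma p (vertical). Genes with an adjusted p under 0.05 are coloured, 27 higher in SDL (orange) and 36 lower (blue), and the 2 unlabelled blue points at the top left are probes without a gene name.

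The genes that rose most included 3 cytochromes P450 of foreign-compound metabolism. Cyp2b10, the phenobarbital-inducible enzyme that serves as the standard readout of CAR, had intensities of 2060, 1017, 1024, 2502 and 1139 in SDL mice 7 to 11 and of 69.0, 65, 94, 71 and 1034 in SD mice 1 to 5. Its probe was detected in 3 of the 5 SD mice and in all 5 SDL mice. SD mouse 5 alone reached the level of the SDL mice, and the groups overlapped by that mouse. The difference was 3.53 ± 0.51 (adjusted p = 0.00066), and 4.26 without SD mouse 5 (adjusted p = 5.8e-09). In the fit to the 10 mice alone it missed the threshold (adjusted p = 0.054). A second, dimmer Cyp2b10 probe was detected in no SD and all SDL mice and differed by 0.37 ± 0.12.

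Cyp2c29, an epoxygenase that also responds to CAR activators, had 1218, 978, 1333, 2896 and 1495 in SDL and 660.1, 336, 505, 418 and 100 in SD. Every SDL mouse was above every SD mouse, and SD mouse 5, the highest for Cyp2b10, was the lowest here. The difference was 2.16 ± 0.33 (adjusted p = 0.0010), with an adjusted p of 0.058 in the 10 mice alone. Cyp2c55, of the same subfamily, had 372, 477, 333, 427 and 187 in SDL and 144, 102, 109, 103 and 163 in SD, without overlap (difference 1.52 ± 0.29, adjusted p = 0.0090, and 0.0089 in the 10 mice alone). Members of these families are close in sequence, the probe sequences were not used here, and signal from a near copy was not tested.

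The proximal promoters of these 3 cytochromes are shown because all 3 genes rose. They are RefSeq sequences of build GRCm38.p6, from 250 bases before to 50 bases after the annotated start, on the plus strand of chr7:25897408-25897707 for Cyp2b10, chr19:39286835-39287134 for Cyp2c29 and chr19:39006769-39007068 for Cyp2c55. Capitals mark the nuclear receptor half-site AGGTCA and the TATA box TATAAA, each searched on both strands.
Cyp2b10: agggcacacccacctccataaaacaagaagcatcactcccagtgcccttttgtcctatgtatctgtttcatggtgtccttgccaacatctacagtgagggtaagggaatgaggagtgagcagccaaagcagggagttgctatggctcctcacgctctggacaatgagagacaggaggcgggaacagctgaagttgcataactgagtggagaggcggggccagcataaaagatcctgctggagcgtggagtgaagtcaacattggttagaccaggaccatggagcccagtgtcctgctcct
Cyp2c29: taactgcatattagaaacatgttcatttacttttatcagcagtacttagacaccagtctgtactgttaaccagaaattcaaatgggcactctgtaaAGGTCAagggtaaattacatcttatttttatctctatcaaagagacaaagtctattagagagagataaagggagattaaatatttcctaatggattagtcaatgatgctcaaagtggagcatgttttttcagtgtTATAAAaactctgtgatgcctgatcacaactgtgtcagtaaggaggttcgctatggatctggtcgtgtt
Cyp2c55: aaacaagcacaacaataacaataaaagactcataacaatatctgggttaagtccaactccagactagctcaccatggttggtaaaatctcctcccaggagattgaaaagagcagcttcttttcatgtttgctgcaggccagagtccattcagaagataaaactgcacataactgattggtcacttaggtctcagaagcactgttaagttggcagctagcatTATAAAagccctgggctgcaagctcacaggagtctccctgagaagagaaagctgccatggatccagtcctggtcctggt
The half-site was found in Cyp2c29 alone, with its first base at -154 from the start, and the TATA box in Cyp2c29 at -19 and in Cyp2c55 at -29. Over all 32851 promoters of the same length, 16.3% held the half-site and 13.6% the TATA box. Of the 10 largest rises and 10 largest falls named here, 14 had a promoter entry, of which 2 held the half-site (Cyp2c29 and Fam25c) and 5 the TATA box. A gene counted if any of its annotated starts matched, while the shares over all promoters count each entry by itself, so the 2 are not like measures. These matches describe the letters in this window only.

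Of 51 genes listed as xenobiotic cytochromes P450, 29 could be tested, and the 3 above rose, against 0.271% of all genes. No member fell. At an unadjusted p under 0.05, 9 were higher and 2 lower, or 37.9% of the list, against 10.7% of all genes. The median difference of the list was 0.23, against -0.01 over all genes, and was 0.07 with median centring. Beside it, all 12 hepatocyte markers tested had higher means in SDL, with a median difference of 0.23, 2 higher and none lower at an unadjusted p under 0.05 and none past the test, and their part in the lists of genes made by hepatocytes was not tested. The members next in line were Cyp1a2 (0.82 ± 0.23, adjusted p = 0.10), Cyp2b23 (1.22 ± 0.38, adjusted p = 0.17), Cyp3a25 (-0.42 ± 0.14, adjusted p = 0.21) and Cyp2c50 (0.93 ± 0.32, adjusted p = 0.21). Nr1i3, which encodes CAR itself, differed by 0.42 ± 0.19 (adjusted p = 0.42).

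Glutathione conjugation attaches glutathione to electrophiles for export. Gstm1, a mu-class transferase and one of the brighter probes, had 14410, 19312, 15068, 17592 and 12723 in SDL and 9745, 7717, 11090, 10713 and 9379 in SD. All SDL mice were above all SD mice, and the difference was 0.88 ± 0.16 (adjusted p = 0.0052, and 0.012 in the 10 mice alone). A second Gstm1 probe, detected in all 10 mice, differed by 0.03 ± 0.11, so the probes of this gene disagreed. Gstm1 was the only 1 of 29 genes of this list to pass. Another 7 were higher at an unadjusted p under 0.05 and none was lower, and the list's median difference was 0.27. In either direction that threshold was passed by 27.6% of the list and by 10.7% of all genes. In all, 8 were higher and 2 lower with quantile normalization and 5 higher and 3 lower with median centring. Gsto1 (0.44 ± 0.12, adjusted p = 0.087), Gsta4 (0.79 ± 0.21, adjusted p = 0.096), Gstm4 (0.53 ± 0.16, adjusted p = 0.15) and Gclm (0.34 ± 0.12, adjusted p = 0.24), a subunit of the enzyme that starts glutathione synthesis, did not pass.

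None of 22 genes tested from a list of NRF2 targets passed, and that list did not hold Gstm1. At an unadjusted p under 0.05, 4 were higher (Ephx1, Gclm, Blvrb and Prdx1) and none lower. That was 18.2% of the list, against 10.7% of all genes in either direction. The median difference was 0.14. With median centring 1 was higher and 1 lower, with a median of 0.07. A second Prdx1 probe, detected in all 10 mice, differed by -0.08 ± 0.14, against 0.29 for the probe used. Nfe2l2, the gene of NRF2 itself, had 213, 236, 175, 224 and 253 in SDL and 332, 377, 266, 268 and 370 in SD. Its SDL mice were all below its SD mice, and the difference was -0.46 ± 0.11 (adjusted p = 0.041). That call was lost without SD mouse 2 or 5 or SDL mouse 7, 8, 9 or 10 (adjusted p up to 0.18) and in the 10 mice alone (adjusted p = 0.15). Its second probe was detected in no SD or SDL mouse. Nfe2l2 was the only member of the list of nuclear receptors and related factors to pass among 18 tested, against 0.361% of all genes lower. At an unadjusted p under 0.05, 3 of the list were higher and 3 lower, or 33.3%, against 10.7% of all genes. Rxra differed by 0.34 ± 0.11 (adjusted p = 0.17) and Hnf4a by 0.49 ± 0.20 (adjusted p = 0.33).

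The enzymes that DSF inhibits did not pass at the transcript level. None of 15 aldehyde dehydrogenases passed, 2 were higher and 1 lower at an unadjusted p under 0.05, and their median difference was -0.02. In either direction that threshold was passed by 20.0% of the list and by 10.7% of all genes. With median centring 1 was higher and 3 lower, with a median of -0.14. Aldh2, the mitochondrial enzyme that clears acetaldehyde and the drug's best known target, is named for that reason and differed by 0.29 ± 0.16 (adjusted p = 0.54). The members with the smallest p were Aldh1l2 (0.45 ± 0.11, adjusted p = 0.054, detected in 1 of 5 SD and 5 of 5 SDL mice), Aldh1b1 (-0.72 ± 0.30, adjusted p = 0.37), Aldh16a1 (0.24 ± 0.10, adjusted p = 0.37) and Aldh3a2 (-0.44 ± 0.22, adjusted p = 0.47).

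Slc39a4 encodes ZIP4, a zinc importer best known from the intestine. Its intensities were 2120, 2503, 2378, 2018 and 1645 in SDL and 484, 500, 490, 456 and 964 in SD. All SDL mice were above all SD mice, the highest of which was again mouse 5. The difference was 2.01 ± 0.41 (adjusted p = 0.017, and 0.0011 in the 10 mice alone), and the call was lost without SD mouse 2 or 4 or SDL mouse 8 or 9 (adjusted p up to 0.062). A second probe of the gene, detected in 1 SD and 5 SDL mice, differed by 0.58 ± 0.16. Of 29 genes of metallothioneins and of copper and zinc handling, Slc39a4 was the only 1 to pass, and 7 in all were higher and none lower at an unadjusted p under 0.05. Those 7 were 24.1% of the list, against 10.7% of all genes past that threshold in either direction. With median centring 3 were higher, and the list's median turned from 0.04 to -0.01. Ccs, the chaperone that loads copper into superoxide dismutase, differed by 0.28 ± 0.08 (adjusted p = 0.14), and its client Sod1 by 0.30 ± 0.12 (adjusted p = 0.31). The metallothioneins Mt1 and Mt2, which bind zinc and copper, differed by 0.74 ± 0.28 (adjusted p = 0.26) and 1.09 ± 0.45 (adjusted p = 0.34). For Mt1, SD mouse 1 lay far below the rest, at 6011 against 21115 to 24236 in the other SD mice and 23372 to 27111 in SDL.

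**Figure D3:**
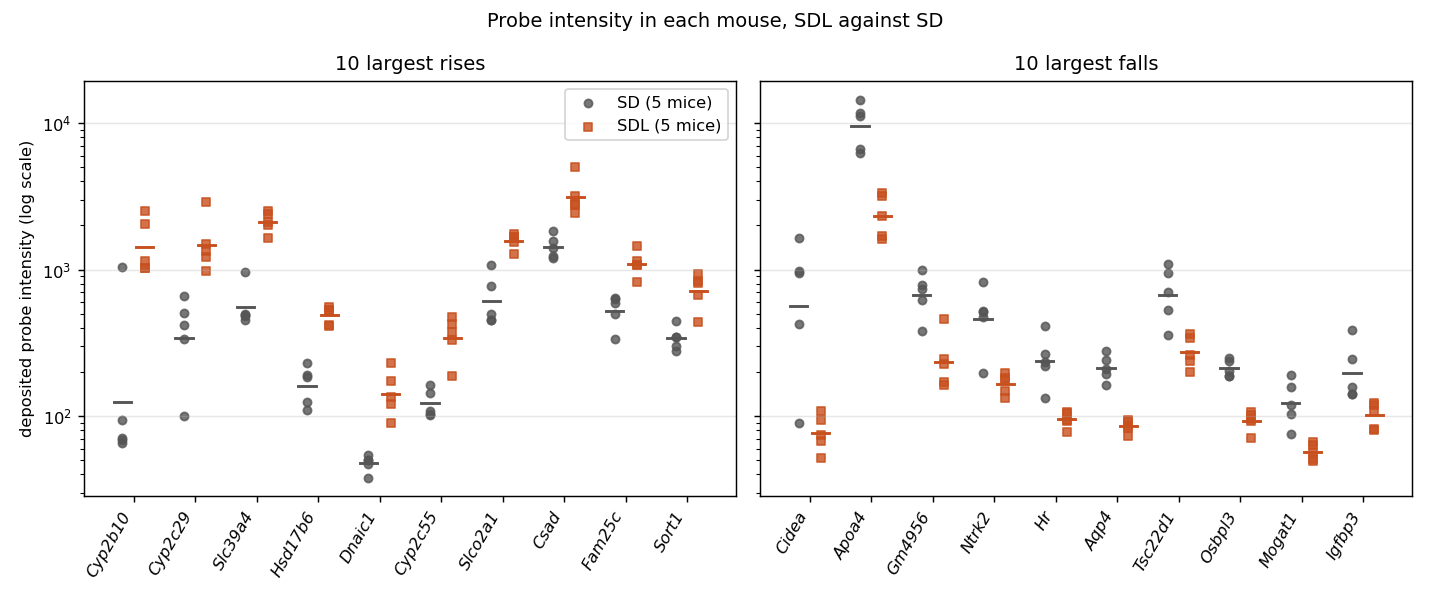
Deposited probe intensity (log scale) of each of the 5 SD mice (circles) and 5 SDL mice (squares) for the 10 largest rises and 10 largest falls with a gene symbol, with bars at the geometric means. The SD mouse at 1034 for Cyp2b10 and at 90 for Cidea is mouse 5 in both cases.

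The other large rises were in Hsd17b6, Slco2a1, Dnaic1, Csad, Fam25c and Sort1. Hsd17b6, a dehydrogenase of androgen and retinol metabolism, had 411, 532, 532, 420.5 and 558 in SDL and 190, 124, 230, 110 and 184 in SD (difference 1.64 ± 0.26, adjusted p = 0.0013). Slco2a1, the prostaglandin transporter, had 1548, 1756, 1674, 1669 and 1276 in SDL and 1076, 496, 769, 450 and 454 in SD (difference 1.46 ± 0.19, adjusted p = 0.00018). In both genes all SDL mice were above all SD mice. Dnaic1, an axonemal dynein chain of motile cilia, was detected in no SD mouse (50.5, 47, 38, 50 and 54) and in all SDL mice (121, 90, 135, 173 and 230). Against the lowest detected signals of the SD arrays it was at least 2.22-fold higher in SDL, a point estimate without sampling error (adjusted p = 0.0011). Sertad4 was likewise detected in no SD and all SDL mice, at least 1.23-fold higher (adjusted p = 0.010).

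Csad, the decarboxylase on the way from cysteine to taurine, had 3204, 4995, 2427, 2777 and 2783 in SDL and 1400.4, 1206, 1830, 1240 and 1569 in SD (difference 1.24 ± 0.25, adjusted p = 0.015), a call lost without SD mouse 2 or SDL mouse 8 (adjusted p up to 0.063). Fam25c had 821, 1074, 1073, 1142 and 1444 in SDL and 587, 628, 496, 335 and 638 in SD (difference 1.15 ± 0.19, adjusted p = 0.0016). Neither gene overlapped between the groups. Sort1, which encodes the sorting receptor sortilin, a regulator of lipoprotein export, had 807, 930, 672, 835 and 438 in SDL and 443, 303, 279, 349 and 346 in SD (difference 1.14 ± 0.20, adjusted p = 0.0048). Its lowest SDL mouse, number 11, was below the highest SD mouse on the deposited intensities and above it after normalization. A second Sort1 probe detected in all 10 mice differed by 1.22 ± 0.20, close to the first.

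The smaller rises (adjusted p from 0.0011 to 0.047) included Prxl2b (0.89 ± 0.14), a prostaglandin F synthase, Crip2 (0.82 ± 0.14), a LIM-domain protein, Golm1 (0.76 ± 0.15), a Golgi membrane protein, Afm (0.74 ± 0.15), the vitamin E carrier afamin, Cdh1 (0.74 ± 0.17), E-cadherin, Foxa3 (0.71 ± 0.14), a transcription factor of hepatocytes, Gm2a (0.69 ± 0.15), the lysosomal GM2 activator, and Apom (0.63 ± 0.15), an apolipoprotein of HDL. Unc13b, Rrbp1, Lcn12 and Hddc2 rose by 0.49 to 0.72. The unnamed probes ILMN_2893564 and ILMN_2603834 rose by 1.14 and 0.71. Of all 27 genes that rose, 12 passed in each of the 10 fits without 1 mouse (Cyp2b10, Cyp2c29, Cyp2c55, Hsd17b6, Dnaic1, Slco2a1, Fam25c, Sort1, Prxl2b, Gstm1, Crip2 and Sertad4).

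The largest fall was in a gene of lipid droplets. Cidea, whose protein helps droplets fuse and grow, had 94, 74, 109, 67.3 and 52 in SDL and 976, 1654, 427, 949 and 90 in SD, and its probe was detected in 3 of the 5 SDL mice. SD mouse 5, at 90, lay within the range of the SDL mice, and the other 4 SD mice lay above it. The difference was -2.76 ± 0.53 (adjusted p = 0.010), and -3.38 without SD mouse 5 (adjusted p = 0.00013). Without SD mouse 2 it was -2.37 (adjusted p = 0.049), the weakest of the fits without 1 mouse. In the 10 mice alone its adjusted p was 0.10. Cidec, a relative with the same role, differed by -1.07 ± 0.43 (adjusted p = 0.33), with 157, 141, 138, 72.5 and 85 in SDL and 141, 386, 129, 221 and 673 in SD and SD mouse 5 the highest of all. The summed intensity of 9 adipocyte markers, of which Cidea is 1, ran from 2213 to 3825 in SD and from 2093 to 2379 in SDL, the adipocyte genes Fabp4, Plin1 and Retn were detected in no mouse, and the part of such cells in the result was not tested. Cidea was the only 1 of 26 genes of lipid droplets and lipolysis to pass, and the list's median difference was -0.09. Over all genes, 0.361% fell past the test. At an unadjusted p under 0.05, 2 of the list were higher and 3 lower, or 19.2%, against 10.7% of all genes. Ces1d (0.58 ± 0.24, adjusted p = 0.35) and Lpl (0.78 ± 0.34, adjusted p = 0.38), both lipases, had higher means in SDL.

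Mogat1, which makes diacylglycerol from monoacylglycerol, had 67, 63, 51, 56.8 and 49 in SDL and 104, 192, 119, 158 and 75 in SD, without overlap. It was detected in 2 of the 5 SDL mice and in all SD mice, and the difference was -1.05 ± 0.20 (adjusted p = 0.010, and 0.086 in the 10 mice alone). It alone passed among 32 genes of fatty acid and triglyceride synthesis, where 7 were lower and none higher at an unadjusted p under 0.05 and the median was -0.11. Those 7 were 21.9% of the list, against 10.7% of all genes past that threshold in either direction. Pparg, the receptor that drives fat storage genes, differed by -0.88 ± 0.22 (adjusted p = 0.068). It passed in the 10 mice alone (-0.91, adjusted p = 0.046), where Olig1 was the other call outside the 63 (-0.86, adjusted p = 0.020). Elovl6 (-0.79 ± 0.24, adjusted p = 0.14), Gpat3 (-0.77 ± 0.23, adjusted p = 0.15) and Thrsp (-0.94 ± 0.39, adjusted p = 0.36), genes of lipogenesis, did not pass.

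Apoa4, an apolipoprotein of triglyceride-rich particles, was bright in both groups, with 1705, 2309, 1626, 3342 and 3200 in SDL and 6259, 11647, 6666, 11161 and 14401 in SD. All SDL mice were below all SD mice, and the difference was -1.82 ± 0.34 (adjusted p = 0.0080, and 0.015 in the 10 mice alone). Apoa4 and Apom, which moved in opposite directions, were the only 2 of 29 apolipoprotein and lipoprotein genes to pass, and none rose with median centring. Over all genes, 0.271% rose and 0.361% fell past the test. Without adjustment, 20.7% of this list differed in either direction at p under 0.05, against 10.7% of all genes. No cholesterol synthesis gene passed among 24 tested. At an unadjusted p under 0.05, 29.2% of them differed in either direction, against 10.7% of all genes. Sqle, which oxidizes squalene, differed by 1.10 ± 0.29 (adjusted p = 0.086) and Cyp51 by 0.69 ± 0.21 (adjusted p = 0.16), and the list's 6 genes higher at an unadjusted p under 0.05 became 2 without SD mouse 2, 3 without SD mouse 5 and 3 with median centring.

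The other large falls were in Ntrk2, Aqp4, Osbpl3, Hr, Tsc22d1, Gm4956, Igfbp3 and a pair of unnamed probes. Ntrk2, which encodes the neurotrophin receptor TrkB, had 181, 197, 178, 148 and 133 in SDL and 828, 477, 196, 512 and 524 in SD (difference -1.36 ± 0.20, adjusted p = 0.00073, 0.011 over all 30 mice and 0.071 in the 10 mice alone). The lowest SD mouse, number 3, lay at the level of the highest SDL mouse on the deposited intensities. Aqp4, a water channel, had 86, 83, 92, 94.1 and 73 in SDL and 280, 209, 241, 162 and 193 in SD, without overlap (difference -1.23 ± 0.18, adjusted p = 0.00073, and 0.0010 in the 10 mice alone). Osbpl3, an oxysterol-binding protein, had 107, 101, 95, 93.2 and 71 in SDL and 186, 204, 187, 250 and 239 in SD, also without overlap (difference -1.11 ± 0.19, adjusted p = 0.0036). A second Osbpl3 probe, detected in 9 of the 10 mice, differed by -0.84 ± 0.16.

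Hr, a corepressor of nuclear receptors, had 107, 93, 78, 105 and 94 in SDL and 220.1, 412, 132, 267 and 233 in SD (difference -1.24 ± 0.28, adjusted p = 0.033). Tsc22d1, a leucine zipper protein induced by TGF-beta, had 361, 199, 238, 342 and 260 in SDL and 944, 1100, 526, 704 and 360 in SD, where SD mouse 5 fell at the top of the SDL range (difference -1.18 ± 0.26, adjusted p = 0.029). Gm4956 had 246, 164, 225, 459 and 172 in SDL and 993, 623, 782, 732 and 381 in SD, where the same SD mouse and SDL mouse 10 overlapped (difference -1.39 ± 0.30, adjusted p = 0.023). All 3 calls were lost without SD mouse 2 or 4 or SDL mouse 8, 9 or 11 (adjusted p up to 0.14), Hr also without SDL mouse 10, the others also without SD mouse 1, and Gm4956 without SD mouse 3. The unnamed probes ILMN_3158725 (-2.36 ± 0.30, adjusted p = 0.00012) and ILMN_3079461 (-1.95 ± 0.24, adjusted p = 0.00012) fell, and in both all SDL mice were below all SD mice. ILMN_3158725 had 182, 131, 120, 325 and 150 in SDL and 786, 929, 849, 883 and 1504 in SD. ILMN_3158725 was the only 1 of the 63 that passed under all 24 alternative fits.

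Binding proteins of insulin-like growth factors moved both ways. Igfbp2, which binds these factors in plasma and is made by the liver, had 4566, 5239, 2550, 3366 and 2359 in SDL and 2871, 978, 2004, 1629 and 2558 in SD. The ranges overlapped on the deposited intensities and not after normalization. The difference was 1.00 ± 0.23 (adjusted p = 0.037), a second probe detected in all 10 mice differed by 1.04 ± 0.26, and the call was lost without SD mouse 2 or 4 or SDL mouse 7, 8 or 9 (adjusted p up to 0.15) and in the 10 mice alone (0.13). Igfbp3, the main carrier of IGF1, had 109, 119, 82, 123 and 80 in SDL and 158, 245, 142, 141 and 385 in SD (difference -0.89 ± 0.21, adjusted p = 0.040), without overlap, a call lost in 7 of the 10 fits without 1 mouse and in the 10 mice alone (0.17). They were the only 2 of 20 genes of the IGF and growth hormone axis to pass, and the list's median difference was 0.00. With quantile normalization neither passed, and with median centring Igfbp3 alone did. Socs3 (0.84 ± 0.41, adjusted p = 0.46), Igfbp5 (-0.69 ± 0.47, adjusted p = 0.67), Cish (0.66 ± 0.46, adjusted p = 0.67) and Socs2 (0.75 ± 0.54, adjusted p = 0.69) were next in line.

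Of the other listed genes that the study names in mouse liver, none passed at an adjusted p under 0.05. The study's own criteria were looser in part, with a false discovery rate under 0.30 and a z-ratio above 1.5. The study placed Avpr1a among the most raised and Acot11 among the most lowered genes shared by its DSF comparisons on both diets, SDL-SD included. Quantitative PCR was also used there to check array results. Whether Avpr1a and Acot11 met the study's criteria in these values is not given here. The study named Cyp2b13, Cidec, Hk2, Cyp7b1 and Hsd3b5 from its comparisons with HFD, not from SDL-SD. The Cyp2c genes that it reports as altered by DSF were not in this list. Avpr1a, the vasopressin receptor of hepatocytes, had 2275, 2341, 2088, 2536 and 1462 in SDL and 2428, 851, 1231, 964 and 662 in SD, with overlap by SD mouse 1. Its difference of 1.04 ± 0.26 missed the threshold (adjusted p = 0.062) and passed in 4 of the 24 alternatives. Among them were quantile normalization (adjusted p = 0.044) and the fit without SD mouse 1 (adjusted p = 0.012). A second Avpr1a probe, detected in 5 SD and 5 SDL mice, differed by 0.79 ± 0.26. Acot11, an acyl-CoA thioesterase, differed by -0.71 ± 0.25 (adjusted p = 0.23), with SD mouse 5 lowest of all at 88, and passed without that mouse (-1.02, adjusted p = 0.0048). Hk2, hexokinase 2, differed by -0.84 ± 0.43 (adjusted p = 0.49), and its highest value, 488, was that of SD mouse 5. Cyp7b1, an oxysterol hydroxylase, differed by 0.31 ± 0.28 (adjusted p = 0.77), and Hsd3b5, a male-biased steroid enzyme, by 0.38 ± 0.95 (adjusted p = 0.94). Hsd3b5 ran from 294 to 7550 in SD and from 313 to 6125 in SDL. Cyp2b13, a female-biased cytochrome P450, was detected in 2 SD and no SDL mice and differed by -0.23 ± 0.52 (adjusted p = 0.93). No probe of Raet1b was matched.

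The smaller falls, with differences from -0.31 to -0.80 and adjusted p from 0.0083 to 0.046, were in genes of varied roles. Prdx3, the mitochondrial peroxiredoxin, differed by -0.31 ± 0.07, Sirt5, a mitochondrial deacylase that removes succinyl groups, by -0.49 ± 0.11, Chchd6, a subunit of the cristae-organizing MICOS complex, by -0.46 ± 0.10, Mpv17l2, a protein of mitochondrial ribosomes, by -0.36 ± 0.08, Etfrf1, a regulator of the electron transfer flavoprotein, by -0.41 ± 0.09, and Agxt2, a mitochondrial aminotransferase, by -0.55 ± 0.11. Among 69 oxidative phosphorylation subunits none passed (limma), 1 was higher and none lower at an unadjusted p under 0.05, and the median difference was 0.08, which turned to -0.05 (0 higher and 4 lower) with median centring and -0.01 (0 higher and 3 lower) with quantile normalization. Other falls were in Efna5 (-0.63 ± 0.12), an ephrin, Smad6 (-0.60 ± 0.11), an inhibitor of BMP signals, Cc2d2a (-0.65 ± 0.15) and Tmem237 (-0.54 ± 0.13), both of the ciliary transition zone, Samd9l (-0.60 ± 0.14), an interferon-inducible gene, and Rhbg (-0.80 ± 0.19), an ammonium transporter of pericentral hepatocytes. The prion protein gene Prnp (-0.48 ± 0.11), the histone gene H4c8 (-0.77 ± 0.18), Selenoh, Tenm3, Omd, Hsbp1, Lancl2, Nhlrc2, Rcbtb2, Marchf2 and the unnamed probe ILMN_3027751 differed by -0.40 to -0.77. Of all 36 genes that fell, 12 passed in each of the 10 fits without 1 mouse.

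**Figure D4:**
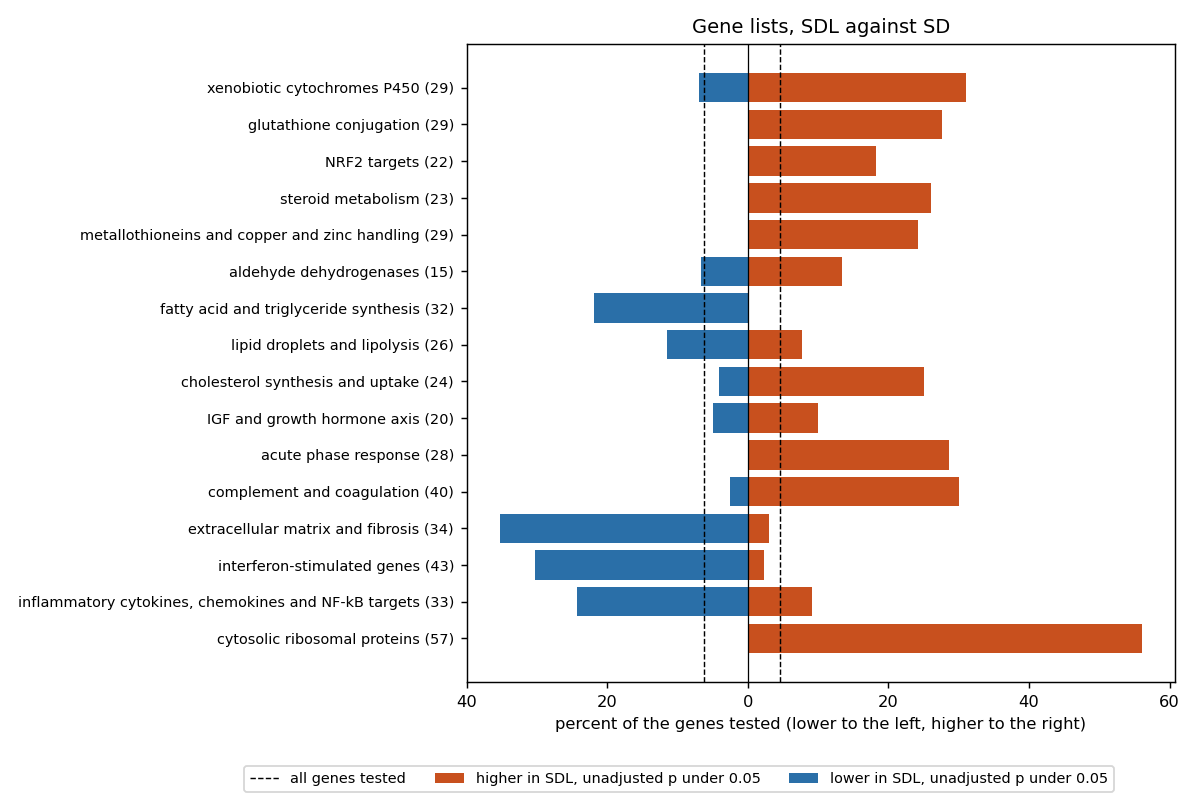
Share of the tested genes of 16 lists (number tested in parentheses) that were higher (orange, right) or lower (blue, left) in SDL at an unadjusted p under 0.05, with the shares over all 9970 genes as dashed lines (4.57% higher and 6.17% lower). Few of these genes pass after adjustment, and lists share genes.

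Several lists held many genes past an unadjusted threshold in 1 direction and none past the adjusted one. Over all genes, 4.57% were higher and 6.17% lower at the unadjusted threshold, or 10.7% in either direction. It was passed in either direction by 56.1% of ribosomal, 32.5% of complement and coagulation and 28.6% of acute phase genes tested. Of 57 cytosolic ribosomal proteins tested, 32 were higher and none lower at an unadjusted p under 0.05, and none passed (limma, adjusted over all genes). The closest was Rpl36a (0.42 ± 0.10, adjusted p = 0.052), and the median was 0.26. The count of 32 became 7 with median centring, 18 with quantile normalization and 23 without SD mouse 2. Complement and coagulation genes had 12 higher and 1 lower of 40, Serpinf2 (0.37 ± 0.10, adjusted p = 0.11) and Mbl2 (0.51 ± 0.14, adjusted p = 0.11) first, and acute phase genes 8 higher and none lower of 28, with medians of 0.16 and 0.26. With median centring these counts of higher genes were 6 and 2, and the acute phase count was 13 without SD mouse 5. The median difference of the hepatocyte markers, 0.23, lay close to that of the acute phase list.

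Matrix, inflammatory and interferon lists held more genes lower than higher at the unadjusted threshold. In either direction it was passed by 38.2%, 33.3% and 32.6% of them, against 10.7% of all genes. Over all genes, 4.57% were higher and 6.17% lower. Of 34 genes of extracellular matrix and fibrosis, 12 were lower and 1 higher at an unadjusted p under 0.05, none passed, and the median was -0.31. Lgals1 (-0.89 ± 0.25, adjusted p = 0.11), Anxa2 (-1.02 ± 0.29, adjusted p = 0.12), Col1a1 (-0.86 ± 0.25, adjusted p = 0.14) and Anxa5 (-0.63 ± 0.21, adjusted p = 0.21) were closest. The count of 12 was 6 without SD mouse 2 and 7 without SD mouse 5. Of 33 inflammatory genes, 8 were lower and 3 higher and none passed, although 1 lower gene passed with median centring and 1 higher and 2 lower genes passed without SD mouse 5. The lower ones included the chemokine Ccl4 (-1.13 ± 0.27, adjusted p = 0.052, detected in 5 SD and 2 SDL mice), Il1b (-0.84 ± 0.25, adjusted p = 0.14) and Cxcl10 (-0.80 ± 0.24, adjusted p = 0.14). Of 43 interferon-stimulated genes, 13 were lower and 1 higher and none passed. Lgals3bp (-0.56 ± 0.15, adjusted p = 0.092) and Irf7 (-0.71 ± 0.20, adjusted p = 0.11) came first. Without SD mouse 5, 4 were lower and 3 higher. Beside these lists, the summed intensity of 14 macrophage markers ran from 6856 to 18536 in SD and from 6039 to 11019 in SDL, and that of 13 stellate and fibroblast markers from 14123 to 20384 and from 11113 to 17084. No marker of either list passed, Cd5l and Itgam were detected in no mouse, and the part of these cells in the lists was not tested.

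The high dose on the same diet was compared with the same SD mice, so its values are given side by side only. SDH-SD called 705 genes (7.07%), from 4 SDH mice. Cyp2b10 differed by 3.96 ± 0.54 in SDH-SD and 3.53 ± 0.51 in SDL-SD, Cidea by -2.88 ± 0.56 and -2.76 ± 0.53, Slc39a4 by 1.64 ± 0.44 and 2.01 ± 0.41, and Ntrk2 by -2.02 ± 0.21 and -1.36 ± 0.20. Tested directly, SDH against SDL called 0 of 9970 genes (limma), with 845 at an unadjusted p under 0.05. Among the genes named here the smallest of these p was that of Lpl, whose SDH level was 1.67 ± 0.36 above SDL (adjusted p = 0.43), and Dnaic1 was higher by 0.87 ± 0.26 (adjusted p = 0.45).

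The low dose on HFD shared no mice with SDL-SD, though both used 1 estimate of the spread. HFDL-HFD called 46 genes (0.461%), from 4 HFDL and 5 HFD mice. Of the 63 genes called in SDL-SD, 57 (90.5%) had the same sign in HFDL-HFD, as did 61.6% of all genes tested. Of them 14 passed in both in the same direction, which was 22.2% of the 63 and 30.4% of the 46. These included Cyp2b10 (3.26 ± 0.54 in HFDL-HFD), Cidea (-3.48 ± 0.56), Ntrk2 (-1.67 ± 0.21), Mogat1 (-1.48 ± 0.22), Igfbp2 (1.56 ± 0.24), Osbpl3 (-1.03 ± 0.20), Slco2a1 (0.98 ± 0.20) and Nfe2l2 (-0.50 ± 0.11).

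**Figure D5:**
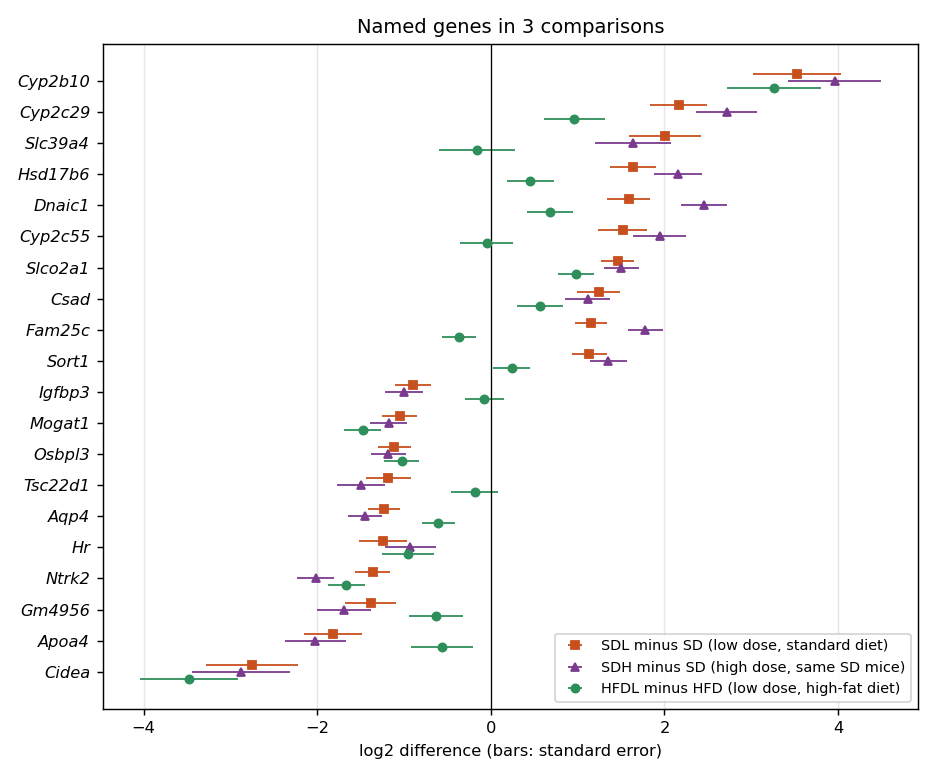
Log2 differences with standard errors (horizontal) of the 10 largest rises and 10 largest falls in SDL minus SD (squares), SDH minus SD (triangles, sharing the SD mice) and HFDL minus HFD (circles). Dnaic1 was detected in no SD mouse, so its points against SD are fitted values and no measured size. Cyp2b10 and Cidea lie near the same values in all 3 comparisons, while Slc39a4, Cyp2c55, Fam25c and Igfbp3 lie near or past 0 in HFDL minus HFD.

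Other genes that moved on SD lay near 0 on HFD. Slc39a4 differed by -0.16 ± 0.44 in HFDL-HFD, Cyp2c55 by -0.05 ± 0.30, Fam25c by -0.37 ± 0.20 and Igfbp3 by -0.07 ± 0.22. The test of the difference between the diets called 0 of 9970 genes (limma), with 420 at an unadjusted p under 0.05, so none of these responses was shown to depend on diet. Fam25c was closest among the genes named, with a response differing by -1.52 ± 0.27 between HFD and SD (HFD minus SD, adjusted p = 0.080), followed by Nhlrc2, whose response was 0.60 ± 0.13 higher on HFD, and Prxl2b (-0.88 ± 0.20, adjusted p = 0.40 for both). For Cyp2c55 the diets differed by -1.56 ± 0.42 and for Slc39a4 by -2.17 ± 0.60 (adjusted p = 1.00 for both). For Cyp2b10 the responses differed by -0.26 ± 0.74 and for Cidea by -0.72 ± 0.77.

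Over all genes, 257 (2.58%) had 5 SDL mice all above or all below the 5 SD mice on the normalized scale, and 54 of the 63 called genes were among them. Both counts rest on the same values as the test. The exceptions were Cyp2b10, Golm1, Rrbp1, Agxt2, Selenoh, Samd9l, Tsc22d1, Gm4956 and Cidea.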

How the data were processed

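Liver RNA of 30 mice was measured by the authors on Illumina MouseRef BeadChips and read with GenomeStudio 2011.1. The deposited intensity of each probe was neither background-corrected nor scaled between arrays, and each came with a deposited detection p-value. The deposited score is the authors' Z-normalized log intensity and was used in alternatives only. Of 25697 probes, 23978 carried a gene symbol. For the report, log2 intensities were Z-normalized per array and multiplied by the mean array SD (1.89). Each gene was represented by its brightest probe, which had to reach a detection p below 0.05 in 5 or more mice. Arrays with a detected share below 35% removed 3 mice, none of them SD or SDL. The 27 mice left, in 6 groups, were fitted with limma 3.58.1 (lmFit and eBayes, R 4.3.3), with Benjamini-Hochberg adjustment and no minimum fold. The 2 arrays of SD mouse 1 were averaged as 1 mouse.

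Every gene past the test could be named, with values per mouse for the 10 largest rises and falls, along with all genes the study names in mouse liver and, from each list, up to 4 other members with the smallest p. Genes named outside this rule (Aldh2, Olig1 and genes given as undetected markers) were chosen after their values were seen. Members, lists and the set of 27 mice were chosen with earlier results of these data known. Other background corrections, scalings, filters, sets of mice and the study's own criteria were tried as alternatives. The number of arrays limits the precision. The files gave no chip or scan batch, so none could be fitted. Matches of promoters used RefSeq sequences of GRCm38.p6.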

Additional observations from a re-analysis of the deposited data

Results flagged for a closer look

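Within the 5 mice of a group, 13 of 264 gene groups (132 named genes, 4.92%) held a mouse whose gap to its nearest neighbour exceeded Dixon's critical value of 0.71 of the range, and chance flags about 1 in 20 groups. SD mouse 5 was the highest in SD for the xenobiotic enzyme Cyp2b10 (0.834), the zinc importer Slc39a4 (0.774), Golm1 (0.856) and Cish (0.860), an inhibitor of cytokine signals, and the lowest for Cyp2c50 (0.838). SD mouse 1 was the lowest in SD for the metallothionein gene Mt1 (0.962). In SDL, mouse 11 was the lowest for Cyp2c55 (0.755) and Sort1 (0.727), mouse 10 the highest for Cdh1 (0.723) and Ppp1cb (0.811), mouse 9 the highest for Cyp2b13 (0.764), mouse 8 the lowest for Hsd3b5 (0.801) and mouse 7 the highest for Il1b (0.724). Cyp2b13 was detected in no SDL mouse.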

How the results depend on the processing

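The 27 genes higher and 36 lower became 11 and 9 in the 10 mice alone, 0 and 2 over all 30 mice, 77 and 92 over all 30 mice with array weights, 29 and 22 with neqc, and 187 and 248 by the criteria of the study's methods. The authors' scores in the 10 mice gave 11 and 9, and with the replicate number as a block 9 and 6. No pairing by number was seen, as same-numbered deviations correlated between -0.20 and -0.0037 and 0 of 5 SDL mice were closest to their own number. With deviations taken within groups of only 5 mice, this check cannot exclude a pairing. Leaving out 1 mouse gave 14 to 43 higher and 13 to 60 lower, fewest higher without SD mouse 2 (14) and fewest lower without SDL mouse 9 (13), and most without SD mouse 5. Of the 63 genes, 24 passed in all 10 of those fits and 48 in 12 or more of the 24 alternatives. Lower counts also came without SD mouse 4 (18 and 15), SDL mouse 8 (16 and 14), SDL mouse 9 (16 and 13) and SDL mouse 11 (21 and 14). SDH-SDL called 3 genes with array weights and 0 to 2 without 1 mouse (2 without SD mouse 5). The difference between the diets called 3 genes with array weights, 1 with median centring and 0 to 1 without 1 mouse (1 without SDL mouse 7). The difference in component 1 ranged from 0.759 to 23.0 without 1 mouse and that in component 2 from 3.35 to 23.5, where it missed the threshold without SD mouse 1, 3 or 5 or SDL mouse 11 (adjusted exact permutation p = 0.095, 0.071, 0.82 and 0.071). None of the genes past the test that were followed through the alternatives changed direction. Hsd3b5, which did not pass (0.38), was at -0.30 without SD mouse 5 and -0.03 over all 30 mice with array weights. Probes near background limit what could be seen, and 5 mice a group limit the precision. The causes of these shifts were not tested.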

Other observations

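Lists not described above mostly held few genes past the adjusted threshold. Over all genes tested, 0.271% rose and 0.361% fell past it. At the unadjusted threshold 4.57% of all genes were higher and 6.17% lower. Steroid metabolism had 1 rise among 23 genes tested, Hsd17b6, and 6 higher and none lower at an unadjusted p under 0.05, which became 4 and 2 with quantile normalization and 2 and 1 with median centring. Among 37 genes of the urea cycle and amino acid breakdown, Csad rose and Agxt2 fell, and 6 were lower and 1 higher at the unadjusted threshold, or 10 and 1 with median centring. The lists of both zones of the liver lobule held calls in both directions. Of 22 periportal genes Cdh1 and Hsd17b6 rose and Apoa4 fell, with 5 higher and 4 lower at the unadjusted threshold. Of 21 pericentral genes Csad rose and Rhbg fell, with 3 higher and 3 lower. None of 43 genes of fatty acid oxidation passed, with 3 higher and 3 lower at the unadjusted threshold (1 and 5 with median centring), and none of 32 genes of the unfolded protein response passed, with 0 in either direction. None of 38 autophagy genes passed, with 3 lower and none higher (5 and none with median centring).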
